A study of Mus musculus with 8 samples.

Results

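The genes described here are 9 negative regulators and feedback targets of NF-kB: Nfkbia, Nfkbie, Nfkbiz, Bcl3, Tnfaip3, Tnip1, Birc3, Zc3h12a and Traf1. They were taken by name, from what they are known to do and with earlier results of these data known, and are 9 of the 55414 genes in the table. The data are bulk RNA-seq counts of Paneth cells, the antimicrobial secretory cells of the small intestinal crypts, sorted by flow cytometry from C57BL/6J mice. For 7 days, 4 mice drank Milli-Q water and 4 drank water with 25 mM ZnSO4. By the labels, all 8 then received TNF by injection and were sampled 3 hours later, with 1 library per mouse. No library without TNF belongs to these groups, so induction by TNF was not measured. The files hold no record of the injection apart from the labels, and for zinc replicate 3, where many TNF targets were far lower than in the other mice, whether TNF was received cannot be told from them. The age of the mice and the dose of TNF are not given in the sources used here.

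When TNF binds its receptor, ubiquitin chains built on the receptor complex activate the IKK kinase, IKK marks the IkB proteins for destruction, and the NF-kB dimers they held enter the nucleus. Among the first genes that NF-kB switches on are its own brakes, so that the signal ends itself. The brakes act at different levels: new IkB protein takes NF-kB back out of the nucleus, ubiquitin-editing proteins dismantle the receptor complex, and RNA-cutting enzymes destroy the messengers that NF-kB produced. Not every gene of the group is a pure inhibitor. Nfkbiz and Bcl3 encode nuclear IkB-type proteins that can also activate genes, Birc3 encodes a ubiquitin ligase that helps to build the receptor complex, and Traf1 encodes an adaptor of that complex.

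The promoters of these genes were searched for the motif of NF-kB itself, and some but not all held it. RefSeq promoters (GRCm38.p6, from 250 bases before to 50 after the start of the gene) were found for 8 of the 9 genes; Nfkbiz has no entry. The kB consensus, the 10-base motif bound by NF-kB, was searched on both strands. Of these 8 genes, 5 held a match, against 4.51% of all 32851 promoters. The genes with a match were Tnfaip3, Nfkbia, Nfkbie, Bcl3 and Tnip1, and those without were Birc3, Zc3h12a and Traf1. A second annotated promoter of Tnfaip3 held no match. The interferon element GAAANNGAAA was in none of the 8 genes' promoters (3.44% of all promoters hold it), and the AP-1 site TGACTCA was in those of Tnfaip3 and Nfkbie (5.2% of all). No match says only that these letters are not in this window. The matches are shown with 25 bases on each side, 5′ to 3′ in the direction of the gene, and capitals mark the kB consensus. Each line is named by gene and position, all on the minus strand except Nfkbie.
Nfkbia, chr12:55492642-55492701: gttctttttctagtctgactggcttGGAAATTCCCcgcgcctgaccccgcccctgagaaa
Tnfaip3, chr10:19015388-19015447: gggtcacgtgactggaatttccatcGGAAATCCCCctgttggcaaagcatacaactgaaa
Tnfaip3, chr10:19015501-19015560: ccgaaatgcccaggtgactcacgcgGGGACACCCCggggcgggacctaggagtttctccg
Nfkbie, chr17:45555569-45555628: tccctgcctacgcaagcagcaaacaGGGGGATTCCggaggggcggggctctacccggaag
Bcl3, chr7:19822719-19822778: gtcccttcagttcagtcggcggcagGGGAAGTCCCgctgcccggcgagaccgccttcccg
Tnip1, chr11:54962962-54963023: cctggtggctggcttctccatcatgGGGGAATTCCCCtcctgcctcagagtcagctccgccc

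The capitals in Tnip1 cover 3 overlapping matches, and the central one reads the same on either strand. Measured from the start of the gene, the matches begin at base -29 in Nfkbia, -12 and -125 in Tnfaip3, -106 in Nfkbie, -58 in Tnip1 and 3 in Bcl3. For contrast, the whole promoter of Zc3h12a is shown as an example that holds no match.
Zc3h12a, chr4:125127832-125128131: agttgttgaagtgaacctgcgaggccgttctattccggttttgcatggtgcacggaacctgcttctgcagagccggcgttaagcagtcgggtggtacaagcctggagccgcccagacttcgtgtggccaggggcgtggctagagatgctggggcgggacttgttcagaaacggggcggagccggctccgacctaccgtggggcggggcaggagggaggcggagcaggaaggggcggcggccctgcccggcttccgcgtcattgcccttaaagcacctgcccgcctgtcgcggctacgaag

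Library totals ran from 10623658 to 15101627 counts. The libraries carried Paneth cell products at 393839 to 741004 CPM in sum over 10 genes (CPM, counts scaled to library size with TMM factors). Of 20 immune cell markers 9 had no count in any library, and Ptprc, the general leukocyte marker, had 2 counts over the 8 libraries. Of 12 stromal and endothelial markers 8 had no count. In bulk samples, fewer cells of a type and less RNA per cell cannot be told apart. Zinc replicate 3 stood apart from the rest: across genes its log2 CPM correlated at 0.847 to 0.903 with the other libraries, which correlated at 0.954 or more among themselves. It is therefore given apart, and each comparison is given with and without it.

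The IkB proteins come first, as the direct brake. Nfkbia (ENSMUSG00000021025, GRCm39 chromosome 12, 55535332 to 55539432, minus strand) encodes IkB alpha, which binds NF-kB dimers and is the fastest to be resynthesised. It was at 534, 493, 497 and 467 CPM in Milli-Q water libraries 1 to 4, and at 439, 434 and 507 CPM in zinc libraries 1, 2 and 4. Zinc replicate 3 held 28.6 CPM. The other 7 libraries thus lay within a factor of 1.23 of each other, the narrowest spread of the group (coefficient of variation 7.61%), and zinc replicate 3 was 15.2-fold below the lowest of them. Nfkbie (ENSMUSG00000023947, chromosome 17, 45866585 to 45874661, plus strand) encodes IkB epsilon, a slower relative. It was at 10.7, 10.5, 11.9 and 13.1 CPM with water, at 10.5, 9.11 and 12.9 CPM in zinc 1, 2 and 4, and at 0.421 CPM in zinc replicate 3, where it had 6 counts. Water and zinc overlapped for both genes once that library was set aside. For Nfkbia only zinc 4 overlapped, and zinc 1 and zinc 2 lay below every water library.

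Bcl3 (ENSMUSG00000053175, chromosome 7, 19541553 to 19557570, minus strand), a nuclear IkB-type protein, was at 236, 234, 198 and 237 CPM in water 1 to 4. In zinc 1, 2 and 4 it was at 227, 297 and 255 CPM, and in zinc replicate 3 at 14.9 CPM. The highest library was zinc 2 and the lowest, outside zinc replicate 3, was water 3. Nfkbiz (ENSMUSG00000035356, chromosome 16, 55631738 to 55659262, minus strand) encodes IkB zeta, a nuclear cofactor for a later set of NF-kB targets. Its levels were 45.1, 46.0, 37.8 and 26.8 CPM in water 1 to 4, then 9.09, 18.0 and 28.6 CPM in zinc 1, 2 and 4. Zinc replicate 3 held 7.79 CPM, only 1.17-fold below zinc 1. Nfkbiz was the gene of the group with the widest spread among the 7 libraries (5.07-fold from lowest to highest, coefficient of variation 45.6%). Zinc 1 and zinc 2 lay below every water library, and zinc 4 lay just above water 4.

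The ubiquitin-editing pair lay within a factor of 1.37 (Tnfaip3) and 1.54 (Tnip1) among the 7 libraries, and far lower in zinc replicate 3. Tnfaip3 (ENSMUSG00000019850, chromosome 10, 18874201 to 18891405, minus strand) encodes A20, which trims and replaces ubiquitin chains on the receptor complex. It was at 90.2, 85.6, 84.2 and 76.3 CPM with water, at 102, 78.3 and 74.6 CPM in zinc 1, 2 and 4, and at 2.46 CPM in zinc replicate 3. This was the deepest difference of the group, 34.4-fold below the mean of the other 7 libraries, on 35 counts. Tnip1 (ENSMUSG00000020400, chromosome 11, 54796320 to 54854661, minus strand) encodes ABIN1, a ubiquitin-binding partner of A20. It was at 161, 125, 118 and 105 CPM with water and at 120, 133 and 118 CPM in zinc 1, 2 and 4. Zinc replicate 3 held 10.3 CPM, 12.2-fold below the mean of the others.

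Birc3 (ENSMUSG00000032000, chromosome 9, 7845790 to 7873229, minus strand) encodes cIAP2, a ubiquitin ligase of the TNF receptor complex that restrains cell death. It was at 252, 226, 257 and 247 CPM with water, at 207, 198 and 205 CPM in zinc 1, 2 and 4, and at 9.19 CPM in zinc replicate 3. Every zinc library lay below every water library, a separation that no other gene of the group showed. Without zinc replicate 3, 3.99% of 10755 genes showed it in this direction. Its constitutive relative Birc2, named after its value was seen, was at 15.02 CPM in zinc replicate 3, within the 14.8 to 21.8 CPM of the other libraries.

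Zc3h12a (ENSMUSG00000042677, chromosome 4, 125012216 to 125021711, minus strand) encodes Regnase-1, an RNase that cuts inflammatory messengers, that of Nfkbiz among them. Its levels were 118, 94.0, 110 and 71.5 CPM with water, then 35.0, 51.9 and 80.1 CPM in zinc 1, 2 and 4. Zinc replicate 3 held 12.1 CPM, 2.90-fold below zinc 1. As for Nfkbiz and Nfkbia, zinc 1 and zinc 2 lay below all water libraries and zinc 4 did not. The share of all genes with this pattern was not computed. As for Nfkbiz, the spread of Zc3h12a among the 7 libraries was wide (3.37-fold, coefficient of variation 37.5%). The remaining 6 detected genes spread between 7.61% and 14.2%.

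Traf1 (ENSMUSG00000026875, chromosome 2, 34831762 to 34851837, minus strand), an adaptor that NF-kB induces in lymphoid cells, had 0 counts in all 8 libraries. A count of 0 allows at most 0.179 to 0.369 CPM per library, so a level under this limit could not have been detected. It was left out of all tests, and 8 of the 9 genes were tested.

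**Figure D1:**
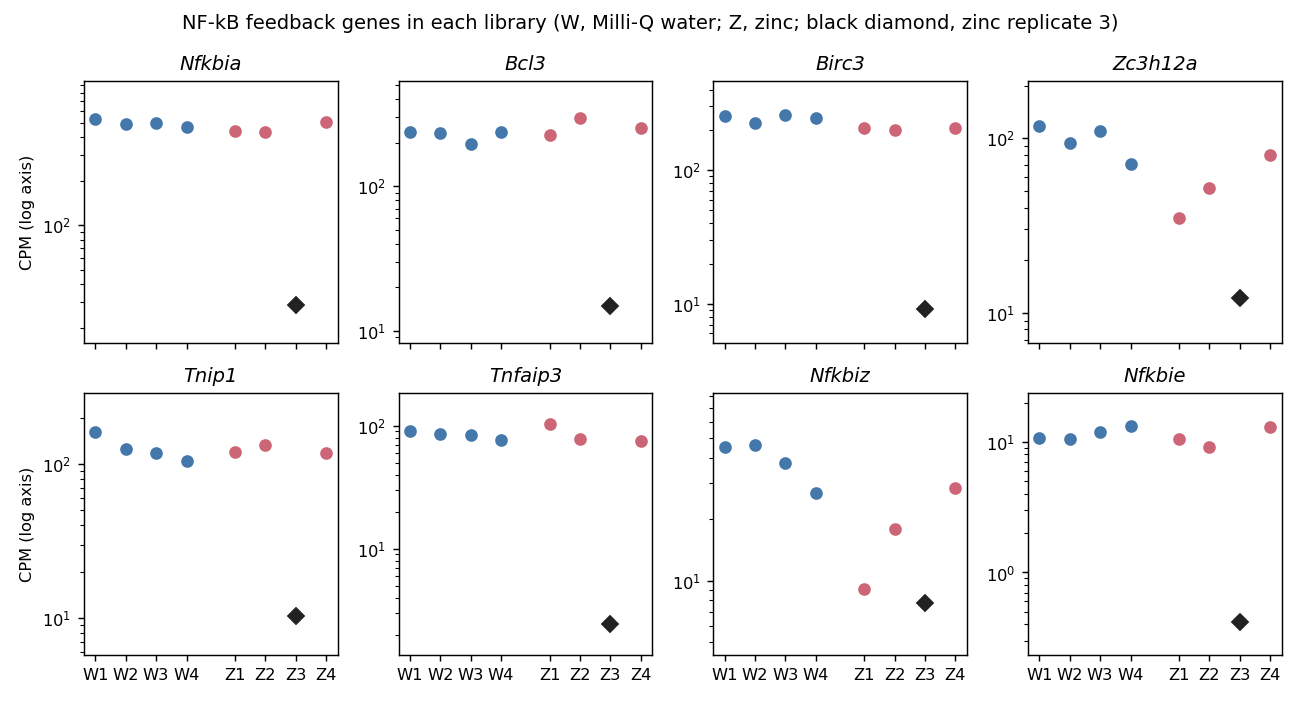
CPM (log axis) of the 8 detected genes in the Milli-Q water libraries (W1 to W4, blue), the zinc libraries (Z1, Z2 and Z4, red) and zinc replicate 3 (black diamond), 1 point per mouse. Zinc replicate 3 is lowest in every panel. In the panels of Nfkbiz, Zc3h12a, Nfkbia and Birc3 zinc 1 and zinc 2 also lie below the water libraries.

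Levels of different genes can be compared only per length. By CPM per kilobase of exon, averaged over the 7 libraries, the order was Nfkbia, Bcl3, Birc3, Zc3h12a, Tnip1, Tnfaip3, Nfkbiz and Nfkbie. Nfkbia was at 249 ± 18.9 CPM per kilobase (SD, n = 7), Bcl3 at 45.9 ± 5.80 and Birc3 at 26.2 ± 2.84, and the ranges of these 3 did not touch. From there down, each gene overlapped in range with the next. Birc3 was above Zc3h12a (20.6 ± 7.71) in 6 of 7 libraries and Zc3h12a above Tnip1 (12.2 ± 1.73) in 6 of 7, so neither pair has a firm order. Tnip1 was above Tnfaip3 (8.70 ± 0.995), and Tnfaip3 above Nfkbiz (5.38 ± 2.45), in 7 of 7. Nfkbiz was above Nfkbie (2.68 ± 0.348) in 6 of 7, so this pair has no firm order either. With the mean length of the coding transcripts in place of all exons the order was the same, but the levels depended on the length used: Nfkbia came to 321, Bcl3 to 140 and Birc3 to 54.6 CPM per kilobase, so that Nfkbia and Bcl3 lay closer together. In zinc replicate 3 the order differed, with Zc3h12a in place 2 (3.10 CPM per kilobase) and Nfkbiz in place 4 (1.39), while Nfkbia was still the highest (14.7).

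**Figure D2:**
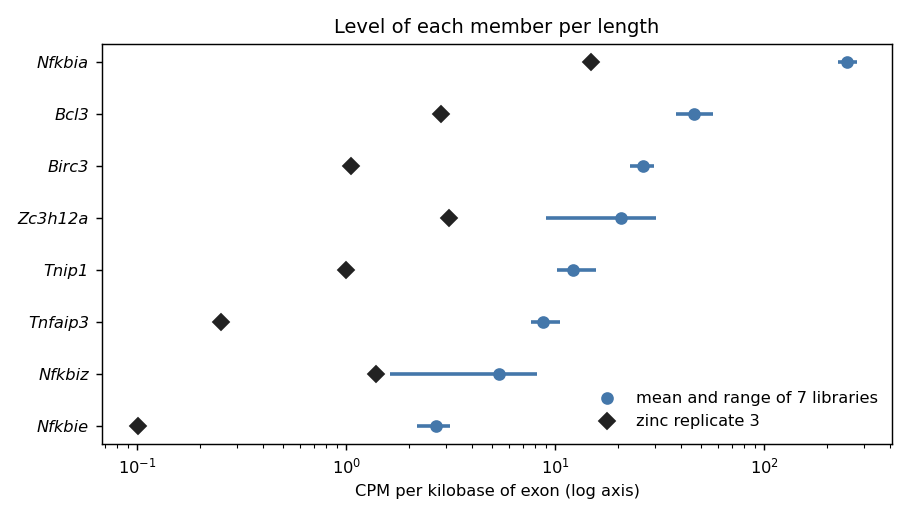
CPM per kilobase of exon (log axis) of each gene, as the mean (point) and range (line) of 7 libraries, with zinc replicate 3 as a black diamond. Nfkbia leads at 249 CPM per kilobase and Nfkbie has the lowest mean, 2.68, within the range of Nfkbiz.

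Across all genes, how far zinc replicate 3 lay from the other mice was described by its log2 CPM (prior count 2) minus the mean of the other 7 libraries. As this is 1 library, chosen with earlier results known, no test was made. The median of this difference was -4.03 over the 8 tested genes and 0.0352 over all 10707 genes. It ran from -5.01 (Tnfaip3), -4.60 (Birc3), -4.30 (Nfkbie), -4.07 (Nfkbia), -3.99 (Bcl3) and -3.58 (Tnip1) to -2.61 (Zc3h12a) and -1.76 (Nfkbiz). Tnfaip3 had place 33 from the most negative of all genes and Nfkbiz place 468. Zinc replicate 3 was the lowest of the 8 libraries for 8 of 8 genes, against 30% of all genes, and lay more than 4-fold below the lowest other library for 6 of 8, against 2.44% of all genes. The 2 genes outside that limit were again Nfkbiz and Zc3h12a.

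**Figure D3:**
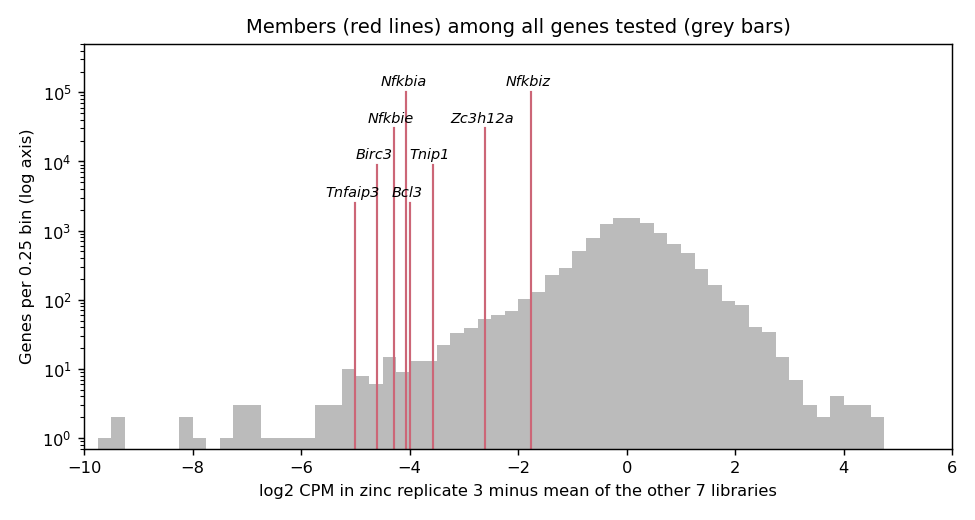
Difference in log2 CPM between zinc replicate 3 and the mean of the other 7 libraries for 10707 genes (grey bars, genes per bin of 0.25, log axis) with the 8 NF-kB feedback genes as red lines (their height only separates the names). All 8 lie left of the centre, from -5.01 (Tnfaip3) to -1.76 (Nfkbiz).

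Within each library, the make-up of the group is free of scaling between libraries. Nfkbia gave 35.6% to 39.6% of the group's counts in the 7 libraries and 33.3% in zinc replicate 3 (95% Wilson interval 30.8 to 36.0, counting error only). Nfkbiz gave 0.790% to 3.51% in the 7 and 9.09% in zinc replicate 3 (7.604 to 10.8). Zc3h12a gave 3.05% to 8.35% in the 7 and 14.1% in zinc replicate 3 (12.3 to 16.2). Tnfaip3 went the other way, at 5.82% to 8.91% in the 7 and 2.87% in zinc replicate 3 (2.07 to 3.96). So did Birc3, at 16.0% to 19.9% in the 7 and 10.7% in zinc replicate 3 (9.1 to 12.6). The low library was thus not a uniform reduction of the others: all 8 genes were lower, but by different factors. The group as a whole held 0.0995% to 0.156% of all counts in the 7 libraries and 0.00927% in zinc replicate 3.

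**Figure D4:**
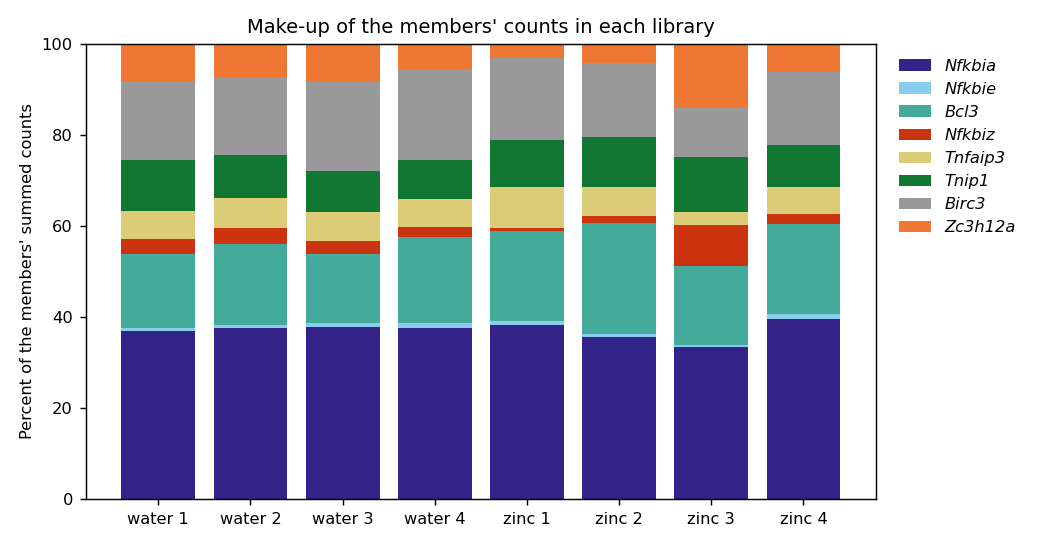
Share of each gene in the summed counts of the group (percent), 1 stacked bar per library. Nfkbia holds 33.3% to 39.6% everywhere, while Nfkbiz and Zc3h12a are widest in zinc 3 (9.09% and 14.1%) and narrowest in zinc 1 (0.790% and 3.05%).

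The comparison the design implies is zinc against Milli-Q water under TNF. With all 8 libraries, the edgeR quasi-likelihood test called 0 of the 8 genes at an adjusted p of 0.05, and 0% of all 10707 genes. All 8 were lower with zinc, with a median log2 fold change of -0.50 against 0.0062 over all genes. At an unadjusted p under 0.05 there were 2 lower genes of 8, Nfkbiz and Zc3h12a, against 3.78% of all genes. The log2 fold change of Nfkbiz was -1.30 (SE 0.373, edgeR adjusted p 0.485). That of Zc3h12a was -1.13 (SE 0.439, adjusted p 0.485). The other 6 lay between -0.66 and -0.19, with SE of 0.555 to 0.689, and their 95% intervals held changes in either direction.

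Without zinc replicate 3 the test again called 0 of the 8 genes, and 0% of 10755 genes. The SE narrowed to 0.113 to 0.297, and the genes parted. The median log2 fold change was -0.10 (0.0042 over all genes), with 6 genes lower and 2 higher. Tnfaip3 was at 0.02 (SE 0.134), Tnip1 at -0.04 (SE 0.147), Nfkbie at -0.09 (SE 0.170) and Nfkbia at -0.11 (SE 0.122). For Tnfaip3 the 95% interval of the fold, zinc over water, was 0.83 to 1.24, and for Nfkbia 0.77 to 1.11. Bcl3 was at 0.21 (SE 0.133, edgeR adjusted p 0.723). Birc3 was at -0.26 (SE 0.113, adjusted p 0.595), a fold of 0.832 (95% interval 0.702 to 0.986).

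Nfkbiz and Zc3h12a kept the largest differences of the group without zinc replicate 3. Nfkbiz was at 38.9 ± 8.89 CPM with water (SD, n = 4) and 18.5 ± 9.74 CPM with zinc (n = 3). Its log2 fold change came to -1.06 (SE 0.297) with an edgeR adjusted p of 0.5002. Zc3h12a averaged 98.3 ± 20.4 CPM in the water libraries and 55.7 ± 22.8 CPM in zinc 1, 2 and 4, and its log2 fold change came to -0.81 (SE 0.240) with the same adjusted p, 0.5002. With Birc3 they were the 3 lower genes of 8 with an unadjusted p under 0.05, against 3.72% of all genes. Neither Nfkbiz nor Zc3h12a passed after adjustment. With zinc replicate 4 also left out, Nfkbiz (-1.51, edgeR adjusted p 0.0366) and Zc3h12a (-1.17, adjusted p 0.0384) passed, where 0.49% of all genes were called, with 2 zinc libraries remaining. Of zinc 1, 2 and 4, only zinc 4 overlapped water for these genes, so leaving it out in itself made the groups separate. Nfkbiz and Zc3h12a also passed in edgeR without the expression filter (-1.07, adjusted p 4.17e-08, and -0.82, adjusted p 3.69e-05), where 0.966% of 18228 genes were called. In that fit their SE fell to 0.162 and 0.153, near the 0.149 of Tnfaip3 and of Tnip1, which spread far less between mice. These adjusted p thus take little account of each gene's own spread. Over all alternatives with 7 libraries the adjusted p ran from 4.17e-08 to 0.923 for Nfkbiz and from 3.69e-05 to 0.923 for Zc3h12a. Some marker sums moved with these genes. The summed CPM of 10 crypt stem cell markers was 1067 in zinc 1 and 794 in zinc 2, the libraries lowest in both genes outside zinc replicate 3 (893), against 473 to 617 with water and 483 in zinc 4. Much of this sum was Olfm4 and Sox9. Olfm4 averaged 212 CPM with water and 388 CPM in zinc 1, 2 and 4, and Sox9 212 and 214 CPM. With 7 libraries 8 of the 9 crypt markers tested were higher with zinc and 1 lower. The summed CPM of 12 enterocyte markers was 375 in zinc 1 and 339 in zinc 2, against 283 to 311 with water and 289 in zinc 4. Most of the enterocyte sum was Vil1, at 221 to 286 CPM over the 7 libraries, and the markers did not move as a set. With 7 libraries 5 of the 9 tested were higher with zinc and 4 lower, with a median log2 fold change of 0.00144. The 20 immune cell markers summed to 37.1 to 41.6 CPM in zinc 1, 2 and 4, against 47.0 to 102 with water. Nearly all of that sum was Cd74, Lyz2 and H2-Aa, while Ptprc had 2 counts over the 8 libraries. Cd74 averaged 49.5 CPM with water and 16.9 CPM in zinc 1, 2 and 4, and H2-Aa 6.01 and 0.922 CPM. Lyz2 was at 20.3 and 21.4 CPM. Such sums do not count cells, and the part of cell composition in the difference was not tested.

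**Figure D5:**
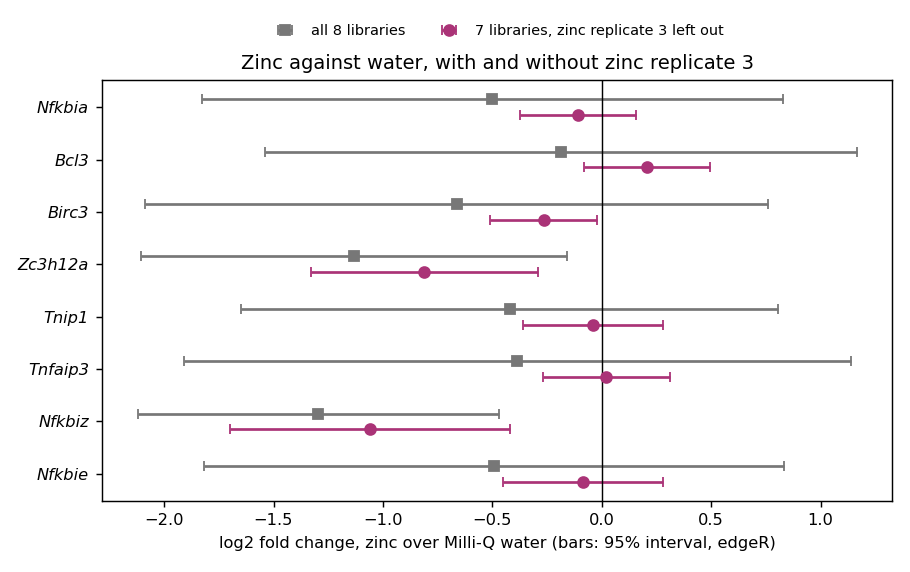
Log2 fold change of zinc over Milli-Q water by edgeR, with 95% intervals, from all 8 libraries (grey squares) and from 7 libraries (purple circles). Leaving out zinc replicate 3 narrows the intervals; those of Nfkbiz (-1.06), Zc3h12a (-0.81) and Birc3 (-0.26) lie below 0 before adjustment.

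The other genes of the pathway set these values in context. Of 16 further brakes, 13 could be tested and 0 were called with 8 or with 7 libraries. Zfp36, which like Zc3h12a promotes decay of inflammatory messengers, was at 303 CPM with water (mean, n = 4), 204 CPM in zinc 1, 2 and 4, and 33.4 CPM in zinc replicate 3. Its log2 fold change was -0.91 (SE 0.485) with 8 libraries and -0.56 (SE 0.236, edgeR adjusted p 0.595) with 7. Rc3h1, another RNA-decay factor, was at 24.2 and 31.3 CPM, and at 26.7 CPM in zinc replicate 3, within the range of the others. Tax1bp1, an A20 cofactor, was at 159 and 132 CPM, and 119 CPM in zinc replicate 3. Of the A20-binding relatives of Tnip1, Tnip2 was at 16.4, 13.8 and 6.81 CPM, and Tnip3 at 3.80, 2.06 and 0 CPM. The deubiquitinase Otulin was at 10.6, 11.8 and 12.1 CPM in the same order. Over the 13, the difference of zinc replicate 3 from the other libraries had a median of -1.03, and 8 were lowest in it. Nfkbib, which encodes the slowly turning over IkB beta and was named after its values were seen, lay at 15.02 CPM there, against 58.8 to 74.9 CPM.

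The signalling chain above the brakes was shifted less in zinc replicate 3 than the brakes themselves in median. Of 17 genes of the receptor complex and the IKK chain, 16 were tested with 8 libraries, 0 were called, and the median difference of zinc replicate 3 was -0.50, with 9 lowest in it. Ikbkb, a catalytic IKK subunit, was at 22.2 CPM with water, 18.4 CPM in zinc 1, 2 and 4, and 11.5 CPM in zinc replicate 3. Chuk, the other catalytic subunit, was at 45.0, 42.2 and 30.3 CPM. The receptor Tnfrsf1b was at 55.9, 42.8 and 4.84 CPM and the kinase Ripk1 at 97.9, 82.3 and 25.3 CPM. Tab1, an adaptor of the kinase above IKK, was highest in zinc replicate 3 (15.7 CPM, against 7.88 to 14.5 CPM elsewhere), and Sharpin, a subunit of the linear ubiquitin ligase, was at 12.4 CPM, within 12.0 to 22.6 CPM. The main TNF receptor of epithelial cells, Tnfrsf1a, held 168, 163 and 97.8 CPM in the same order; it was named after its level had been looked up.

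All 5 NF-kB subunits were lowest in zinc replicate 3, and 0 of 5 were called in either comparison. Rel was at 69.4 CPM with water, 54.7 CPM in zinc 1, 2 and 4, and 1.82 CPM in zinc replicate 3. Relb was at 119, 133 and 9.54 CPM, and Nfkb2 at 241, 246 and 25.3 CPM. Rela and Nfkb1 were less far down, at 25.0 and 27.7 CPM in zinc replicate 3 against 91.6 to 115 and 87.5 to 128 CPM in the others. With 7 libraries the median log2 fold change of the subunits was 0.07, with 4 higher and 1 lower with zinc.

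Of 24 effector targets of TNF, 16 could be tested and 0 were called with 8 or 7 libraries. In zinc replicate 3, 15 of the 16 were the lowest of the 8 libraries, with a median difference of -3.70. The exception, Tnfaip2, was at 6.04 CPM there and at most 3.76 CPM elsewhere. With 7 libraries 12 were lower and 4 higher with zinc, with a median of -0.35. The 4 higher were Cxcl10 (20.4 CPM with water and 26.0 CPM in zinc 1, 2 and 4), Cx3cl1 (10.6 and 14.9), Csf1 (9.10 and 10.7) and Ccl20 (14.9 and 15.6). The 6 that follow were taken for the smallest p with 8 libraries, and all were lower with zinc. Irf1, an interferon-pathway transcription factor, was at 156 CPM with water and 106 CPM in zinc 1, 2 and 4 (log2 fold change -0.55, SE 0.140, edgeR adjusted p 0.5002). Ier3, an early-response survival gene, was at 24.5 and 14.5 CPM (-0.73, SE 0.190, edgeR adjusted p 0.5002). The chemokine Cxcl2 was at 4.07 and 1.05 CPM (-1.91, SE 0.586, adjusted p 0.5002), with 0.281 CPM in the lowest of the 7 libraries. Lcn2, an iron-chelating defense protein, was at 15 and 6.34 CPM, Gadd45b at 17.5 and 12.3 CPM, and the mitochondrial antioxidant enzyme Sod2 at 51.9 and 43.0 CPM.

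Genes whose pattern was most like that of the group were sought among all genes tested. Over the 7 libraries without zinc replicate 3, likeness was the Pearson correlation of log2 CPM with the mean of the centred values of the 8 genes, a mean to which the widely spread Nfkbiz and Zc3h12a contribute most. The closest were Klf6 (0.996), Mkln1 (0.993), Tmem252 (0.992), Gpkow (0.986) and Tat (0.977), picked as the highest of all genes searched on 7 points, and so given as a description only. Their levels in zinc replicate 3 were unalike: Mkln1 was at 28.3 CPM there against a mean of 25.7 CPM in the others, Klf6 at 22.9 against 72.7 CPM, Gpkow at 11.4 against 19.0 CPM, Tmem252 at 0.561 against 32.5 CPM and Tat at 0.421 against 194 CPM.

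Among genes with a mean of at least 10 CPM in the other 7 libraries, those furthest below them in zinc replicate 3 were Steap4, Nos2, Icam1, Tat and Osmr. Nos2, the inducible nitric oxide synthase, had 5 counts (0.351 CPM) against 157 to 892 CPM in the others. Tat, tyrosine aminotransferase, had 6 counts against 60.9 to 393 CPM. Steap4, a metalloreductase, Icam1, an adhesion molecule and classical NF-kB target, and Osmr, the oncostatin M receptor, had 0 counts in that library. Against the limit of 3 counts, the mean of the other libraries was at least 624-fold higher for Steap4, 538-fold for Icam1 and 211-fold for Osmr. None of the 8 detected genes was at 0 there, the lowest being Nfkbie with 6 counts.

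Values that moved with zinc replicate 3 stand beside these results. The summed CPM of 12 enterocyte markers was 502 in that library, against 283 to 375 in the others, and that of 10 enteroendocrine and tuft cell markers 38.5 against 17.8 to 28.9. Of the 12 enterocyte markers, 11 were above every other library. So were 5 of the 10 enteroendocrine and tuft cell markers, the tuft markers Dclk1, Trpm5, Pou2f3, Avil and Rgs13 (1.40 to 5.05 CPM). The enteroendocrine markers were not, with Sct at 20 CPM, within 11.8 to 26.8 CPM. The sums of the 10 crypt stem cell markers (893 CPM) and the 10 goblet cell markers (10902 CPM) were within the range of the others, but single markers were not. Zinc replicate 3 was above every other library for 6 of the 10 crypt markers, such as Lgr5 (52.4 CPM against at most 22.6) and Axin2 (47.9 against at most 22.9). The median log2 difference over the crypt markers tested was 0.98. Zinc replicate 3 was below every other library for 1 of the 10, Sox9 (91.9 CPM against 176 to 238). It was above every other library for 3 of the 10 goblet markers, Fcgbp (1270 CPM against at most 318), Zg16 (109 against at most 48.0) and Clca1 (82.2 against at most 54.9), with a median of 0.64. The single markers named in this paragraph were picked after their values were seen. The share of all genes highest in zinc replicate 3 was not computed, so the counts of markers above every other library have no background beside them. The sum of the 10 Paneth cell products was within the range of the others, at 468220 CPM, as was the library total of 13167276 counts. Of these products 1 was below every other library, Reg3g (662 CPM against 2000 to 7697), and 1 above, Habp2 (654 CPM against at most 593). Of the 20 immune cell markers, the summed level was 32.5 CPM against 37.1 to 102 CPM, and Ptprc had no count there. Most of the 32.5 CPM was Cd74 (16.8 CPM) and Lyz2 (13.1 CPM). The part of these differences in the low values of the brakes was not tested.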

How the data were processed

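The authors deposited raw read counts per Ensembl gene, 1 column per mouse, from TruSeq stranded mRNA libraries. The submitters' processing notes name FastQC 0.12.0, STAR 2.7.10a and build mm39; the counter, annotation release, strand setting and handling of multi-mapped reads are not given in the sources used here. Genes on the opposite strand of the 9 had at most 6 counts in any library where the table holds them. Identifiers were matched to GENCODE M39 (GRCm39): 54749 matched and 665 did not, the latter with 0.00443% of counts. Lengths are the union of a gene's exons. In each of 28 library pairs, counts differed beyond sampling noise (chi-square over its degrees of freedom at least 6.38), and all 8 were kept as separate replicates.

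The effect of zinc was tested in edgeR 4.0.16 (R 4.3.3) by the quasi-likelihood F-test with TMM factors and the default expression filter, fitted across all genes with Benjamini-Hochberg adjustment at 0.05. Zinc replicate 3 was in the fit of 8 libraries and left out of that of 7. Alternatives used DESeq2 1.42.0 and limma 3.58.1. Steps were tested on simulated counts. The named genes were the 9, up to 6 of each pathway list by smallest p, and the 5 most like and 5 furthest below in zinc replicate 3. The members and lists were chosen with earlier results of these data known.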

Additional observations from a re-analysis of the deposited data

Results flagged for a closer look

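In each group of 4 mice, each detected gene was searched for a library whose gap to the nearest of the others, over the range of the group, exceeded Dixon's 95% critical value for 4 samples, which chance exceeds in about 1 in 20 groups. Of 16 groups 4 stood out. Of these, 3 are the library set apart beforehand, over genes that vary together, so the rate for chance does not apply to their number. In zinc replicate 3, Nfkbia was at 28.56 CPM, Birc3 at 9.193 CPM and Tnip1 at 10.32 CPM, each far below the other 3 zinc libraries. In Milli-Q water 3, Bcl3 was at 197.5 CPM, with 233.8 to 236.7 CPM in the other 3. For Tnfaip3, Nfkbie, Nfkbiz and Zc3h12a no library passed this limit, nor did zinc replicate 3 for Bcl3.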

How the results depend on the processing

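None of the 9 genes was called in any of the alternatives with 8 libraries: DESeq2 size factors, Defa genes removed, no filter, DESeq2, limma-voom with sample weights, a replicate block, each library left out, or water 3 and 4 left out. With 7 libraries the count was 2 (Nfkbiz and Zc3h12a) with no filter, where the SE took little account of each gene's own spread. It was 0 to 2 with a further library left out, 2 only without zinc replicate 4, which had overlapped water for both genes. Under the others it was 0. Over all alternatives the log2 fold change of Nfkbiz ran from -1.75 to -0.74 and that of Zc3h12a from -1.58 to -0.57, all negative. Directions that turned were those of Bcl3 with 8 libraries (limma-voom 0.0697; leaving out 1 library, -0.45 to 0.21) and Tnfaip3 with 8 (leaving out 1 library, -0.69 to 0.0211). With 7 libraries they were Tnfaip3 (limma-voom -0.0325; 1 library left out, -0.13 to 0.10; water 3 and 4 also left out, chosen after seeing the data, -0.0459), Nfkbie (1 library left out, -0.24 to 0.0236; water 3 and 4 also left out 0.0366) and Tnip1 (1 library left out, -0.12 to 0.0902). The cause was not tested. Over all genes the count called with 8 libraries was 8 by DESeq2 and 0 by the other alternatives (1092 at an unadjusted p under 0.05 by edgeR, 1286 by DESeq2), and with 7 it was 176 with no filter, 11 by DESeq2, 1 by limma-voom and 0 to 54 with 1 further library left out (867 at an unadjusted p under 0.05 by edgeR). Same-numbered mice did not deviate together from their group means (correlations -0.027 to 0.027 across genes). Zinc replicate 3 entered the zinc mean, so these values cannot exclude a pairing by number. With the replicate block the median log2 fold change of the 8 genes was -0.88 with 8 libraries and -0.10 with 7. Nfkbiz was then at -1.46 and -1.16, and 0 of the genes were called. Counting error limits Nfkbie and Tnfaip3 in zinc replicate 3 (6 and 35 counts) and Traf1 throughout.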
